A study of Homo sapiens with 27 samples.

Results

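A set of 8 genes used as neuronal or neuroendocrine markers were followed through CPSF1 knockdown in prostate cancer cells: MAP2 and RTN1, and 6 others, CHGA, CHGB, SYP, NCAM1, SCG2 and SCG5. All 8 were found by symbol among the 20268 genes of the count table. The other 6 were chosen by name, as markers read in neuroendocrine prostate cancer, though with earlier results of these data known. MAP2 and RTN1 were chosen by their rise in LNCaP cells. The rise of MAP2 and RTN1 in LNCaP is therefore given as a description, with no test.

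RNA was sequenced from 3 human prostate cancer cell lines: LNCaP, which is hormone-sensitive, and the hormone-insensitive LNCaP95 and 22Rv1. The cells received lentivirus that encoded a control hairpin, named CTRL sh, or either of 2 hairpins that target CPSF1, named CPSF1 sh1 and CPSF1 sh2. They were selected in puromycin, then seeded at 500000 cells per well and harvested after 72 h. The 9 groups had 3 replicates each, 27 libraries in all, which the study calls biological replicates without saying whether they came from separate infections, so p-values measure the spread between these libraries only. LNCaP95 was grown without phenol red and the other lines with it, so a difference between LNCaP95 and another line cannot be told apart from the medium. The cells were bulk cultures, in which more cells carrying an mRNA and more mRNA per cell cannot be told apart.

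Neuroendocrine cells store peptide hormones in dense-core vesicles and release them on calcium entry. Chromogranins and secretogranins (CHGA, CHGB and SCG2) are the bulk proteins of these vesicles, SCG5 encodes 7B2, the chaperone of the prohormone convertase PCSK2, and SYP encodes synaptophysin, a membrane protein of small synaptic-like vesicles. NCAM1 encodes the adhesion molecule CD56, MAP2 a microtubule-associated protein of dendrites, and RTN1 a reticulon that shapes the endoplasmic reticulum of neurons and neuroendocrine cells. Prostate adenocarcinoma can lose its luminal programme under therapy and gain such genes. CPSF1 is the largest subunit of the cleavage and polyadenylation specificity factor, which recognises the poly(A) signal of nascent mRNAs.

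Depth ranged from 8515624 to 15904518 counts per library, with a median of 11058723. CPSF1 itself was lower in every knockdown library than in any control of its line. It lay between 86.4 and 108 normalised CPM (read counts relative to library size, scaled by TMM over all libraries) in LNCaP against 153 to 155 in controls, between 56.2 and 67.5 in LNCaP95 against 97.1 to 129, and between 109 and 139 in 22Rv1 against 180.3 to 187.

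Replicate 3 of LNCaP CPSF1 sh1 stood apart from the other LNCaP libraries. The 80 genes that exceeded 20 CPM in every 22Rv1 library and had a median below 0.2 CPM in LNCaP, CHGB among them, summed in that library to 6.56% of their mean level in 22Rv1. In the other 8 LNCaP libraries the same genes summed to between 0.0905 and 0.158% of the 22Rv1 level. All 80 were detected in the library that stood apart, against 26 to 44 of them in the others. The corresponding 125 genes for LNCaP95 summed to between 0.0387 and 0.126% in the LNCaP95 libraries. The source of these reads was not tested, and the knockdown effects of the members in LNCaP are given with and without this library.

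The lines started from very different levels of these genes. With CTRL sh, 22Rv1 cells expressed 6 of the 8 genes above 5 CPM: MAP2 at 166 ± 4.77 (SD, n = 3, as for the values that follow), SYP at 74.3 ± 3.57, CHGB at 34.7 ± 0.790, RTN1 at 15.98 ± 0.896, CHGA at 6.09 ± 0.338 and SCG2 at 5.29 ± 0.715 CPM. LNCaP95 cells expressed only MAP2 at a comparable level (119.6 ± 6.95 CPM), with RTN1 at 3.38 ± 0.806, SYP at 2.17 ± 0.232 and SCG5 at 1.20 ± 0.298 CPM. LNCaP cells held 9.30 ± 1.41 CPM of RTN1, 4.74 ± 0.345 CPM of MAP2, 1.55 ± 0.287 CPM of SYP and 0.426 ± 0.233 CPM of SCG5. Per kilobase of exon, the order in 22Rv1 was SYP (20.6 CPM per kb), MAP2 (15.03), CHGB (7.65), RTN1 (4.08), CHGA (2.78) and SCG2 (1.95). In LNCaP, SYP and MAP2 stood level at 0.431 and 0.429 CPM per kb.

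CHGA and CHGB were near silent in the LNCaP pair of lines. CHGB had 0 counts in all 3 LNCaP and all 3 LNCaP95 controls against 1140 counts over the 3 controls of 22Rv1, which was at least 395-fold higher than LNCaP and at least 426-fold higher than LNCaP95 when set against a floor of 3 counts over the group. CHGA had 201 counts in the 22Rv1 controls and 0 in the LNCaP95 controls, at least 75.1-fold higher against the same floor. Against the single CHGA count in the LNCaP controls the ratio was 209, with an exact 95% counting interval of 37.1 to 8288. SCG2 had 173, 1 and 2 counts in the 22Rv1, LNCaP95 and LNCaP controls, a ratio of 194 (34.3 to 7703) over LNCaP95 and of 89.9 (24.5 to 748) over LNCaP. These intervals and floors cover counting error only.

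Between the controls of 22Rv1 and LNCaP95, 83.7% of all 14082 genes tested differed. CHGA, CHGB and SCG2 had control means under 0.5 CPM in LNCaP95 and are described by their counts above. MAP2 was higher in 22Rv1 by 0.47 on the log2 scale (SE 0.08, adjusted p = 1.17e-06), RTN1 by 2.26 (SE 0.13, adjusted p = 1.77e-16) and SYP by 5.11 (SE 0.19, adjusted p = 3.50e-21), whereas SCG5 was lower (-1.66, SE 0.47, adjusted p = 0.00176). Between the 22Rv1 and LNCaP controls, where 81.5% of all genes differed, SYP was higher in 22Rv1 by 5.56 (SE 0.20, adjusted p = 3.70e-21), and SCG5 gave -0.20 (95% interval -1.36 to 0.96, adjusted p = 0.765). Between the LNCaP95 and LNCaP controls, where 73.1% of all genes differed, SCG5 was higher in LNCaP95 by 1.46 (SE 0.45, adjusted p = 0.00465), and SYP gave 0.46 (-0.33 to 1.24, adjusted p = 0.315). SCG5 also had control means under 0.5 CPM in LNCaP and 22Rv1 (14 and 12 counts over the 3 controls), so its tests here rest on few counts. MAP2 and RTN1 were not tested against LNCaP, whose controls entered their choice.

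**Figure D1:**
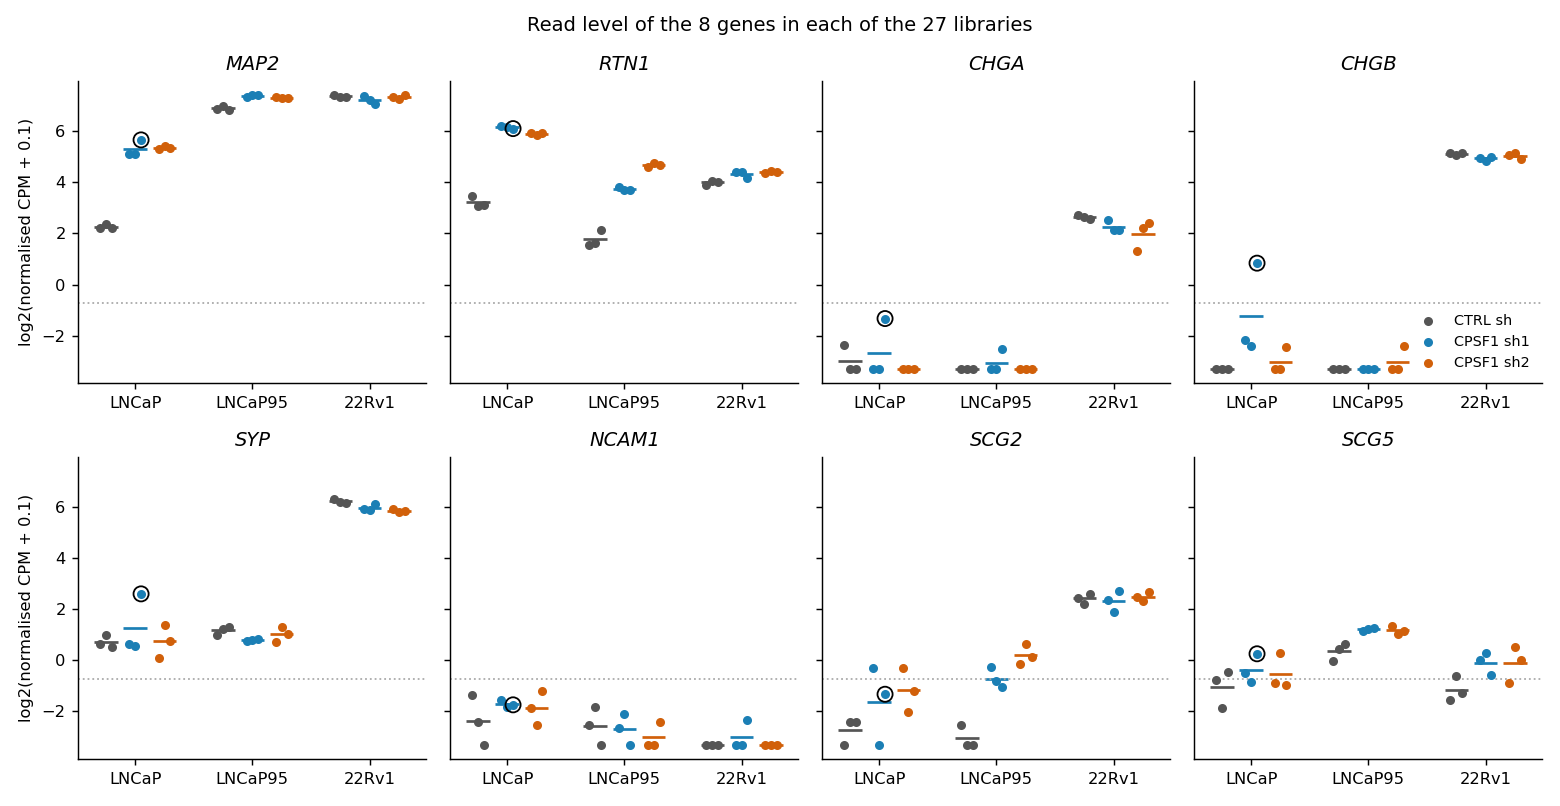
Level of each gene in every library, as log2(normalised CPM + 0.1), by line and hairpin, with 1 point per library and a bar at the group mean of the log2 values. The dotted line marks 0.5 CPM, and the circle marks replicate 3 of LNCaP CPSF1 sh1. MAP2 and RTN1 were above all controls with both hairpins in LNCaP and LNCaP95, while CHGA and CHGB stayed near 0 in both lines apart from the circled library.

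The genes lie apart in the genome. In GRCh37 coordinates of the count table, MAP2 spans chr2:210288782-210598842 on the plus strand, RTN1 chr14:60062695-60337684 on the minus strand, CHGA chr14:93389425-93401638 on the plus strand and CHGB chr20:5892076-5906007 on the plus strand. SYP spans chrX:49044269-49056718 on the minus strand, NCAM1 chr11:112831997-113149158 on the plus strand, SCG2 chr2:224461658-224467221 on the minus strand and SCG5 chr15:32933877-32989299 on the plus strand. RefSeq promoters (GRCh38.p14, 250 bases before to 50 after a start) were matched for 5 of the 8 genes, 9 promoters in all, and none was matched for CHGB, SCG2 or NCAM1. They were searched on both strands for the cAMP response element TGACGTCA, which CREB family factors bind, and for the shorter TGACGT, which every full element also holds. The 2 windows that held a match are shown for 1 granin gene and for RTN1, with the matching letters in capitals.
CHGA (chr14:92923085-92923114, plus strand): ggcggcaccgcTGACGTCAtttccggggtc
RTN1 (chr14:59870958-59870987, minus strand): aggttgggggcTGACGTgcccaggaggacc
The full element in CHGA ends 47 bases before the start, and the shorter match in 1 of the 3 RTN1 promoters begins 200 bases before it. TGACGTCA was present in 1.85% of all 35116 promoters of this length and TGACGT in 7.98%, so the shorter match in particular is common. The 3 MAP2 promoters and those of SYP and SCG5 held neither.

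MAP2 and RTN1 both rose in LNCaP and LNCaP95, with a larger log2 fold change for RTN1 in LNCaP95, and in 22Rv1 only RTN1 was called higher. In LNCaP, MAP2 stood at 4.60, 5.13 and 4.48 CPM in controls, at 34.0, 34.4 and 50.6 CPM with CPSF1 sh1 and at 39.0, 43.3 and 40.7 CPM with CPSF1 sh2. The value of 50.6 belongs to the library that stood apart. Over both hairpins the change came to 3.08 on the log2 scale (SE 0.14), and 3.03 (SE 0.11) without that library.

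RTN1 in LNCaP stood at 10.9, 8.38 and 8.61 CPM in controls, 73.2, 71.7 and 68.8 CPM with CPSF1 sh1 and 60.7, 57.6 and 60.9 CPM with CPSF1 sh2. Its log2 fold change was 2.81 (SE 0.11), with the same value of 2.81 without replicate 3 of CPSF1 sh1. No knockdown library of either gene overlapped the controls. These values chose both genes: among genes above 2 CPM in all 9 LNCaP libraries whose groups did not overlap, MAP2 and RTN1 ranked 1 and 2, and the gene just outside was IGFBP3, an insulin-like growth factor binding protein, at 2.77 (SE 0.18). Among all 13217 genes tested in LNCaP, which include genes near silent in controls, their log2 fold changes ranked 228 and 259.

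In LNCaP95, MAP2 rose from 116, 128 and 115 CPM in controls to 162, 169 and 172 CPM with CPSF1 sh1 and 163, 156 and 159 CPM with CPSF1 sh2. All 6 knockdown libraries lay above all 3 controls. Separation of this kind, here and below, is a description, since the share of all genes that separate likewise is not given. The log2 fold change was 0.44 (SE 0.05, adjusted p = 1.04e-05).

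RTN1 in LNCaP95 rose from 2.86, 2.97 and 4.31 CPM to 14.2, 12.8 and 12.9 CPM with CPSF1 sh1 and 24.3, 26.8 and 25.6 CPM with CPSF1 sh2, again without overlap. The log2 fold change was 2.51 (SE 0.33, adjusted p = 2.93e-05). In this line the hairpins formed separate levels of RTN1.

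In 22Rv1, MAP2 stood at 171, 163 and 163 CPM in controls, 165, 151 and 133 CPM with CPSF1 sh1 and 161, 154 and 170.0 CPM with CPSF1 sh2. The groups overlapped, and the log2 fold change of -0.09 did not pass the test (95% interval -0.22 to 0.03, adjusted p = 0.299). RTN1 stood at 14.98, 16.7 and 16.2 CPM in controls against 21.4, 20.9 and 18.1 CPM with CPSF1 sh1 and 20.8, 21.6 and 21.0 CPM with CPSF1 sh2. All 6 knockdown libraries were above the controls, with a log2 fold change of 0.37 (SE 0.08, adjusted p = 0.00355).

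With all libraries, SYP was not called higher in any line, and it fell in 22Rv1. In 22Rv1, where it was the most abundant of the 8 per kilobase, it stood at 78.4, 72.3 and 72.1 CPM in controls, 59.8, 59.2 and 68.9 CPM with CPSF1 sh1 and 60.8, 56.2 and 57.0 CPM with CPSF1 sh2. Every knockdown library lay below every control, and the fall passed the test (log2 fold change -0.30, SE 0.06, adjusted p = 0.00281). In LNCaP95, SYP lay between 1.91 and 2.35 CPM in controls and between 1.54 and 2.35 CPM in knockdown libraries, and its log2 fold change was -0.29 (95% interval -0.69 to 0.11, adjusted p = 0.224).

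In LNCaP, SYP stood at 1.44, 1.88 and 1.35 CPM in controls, 1.44, 1.36 and 5.96 CPM with CPSF1 sh1 and 0.975, 2.52 and 1.58 CPM with CPSF1 sh2. The value of 5.96 is that of the library that stood apart. The log2 fold change was 0.55 (SE 0.49, adjusted p = 0.347) with it and 0.05 (SE 0.29, adjusted p = 0.888) without it.

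The granins moved unevenly. CHGA in 22Rv1 stood at 6.43, 6.09 and 5.76 CPM in controls, 5.65, 4.31 and 4.31 CPM with CPSF1 sh1 and 2.40, 4.51 and 5.18 CPM with CPSF1 sh2. All 6 knockdown libraries were below the controls, which is a description only. The pooled estimate over the hairpins, -0.48 on the log2 scale (SE 0.19), did not pass the test, with an adjusted p = 0.0743. It passed without replicate 1 of CPSF1 sh1 (adjusted p = 0.0389), with the hairpins as separate groups and their effects averaged (0.0392) and with CPSF1 sh2 alone (0.00763).

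CHGB in 22Rv1 stood at 35.3, 33.8 and 35.1 CPM in controls, 31.1, 28.6 and 32.1 CPM with CPSF1 sh1 and 33.2, 35.7 and 30.1 CPM with CPSF1 sh2. The highest knockdown library was above all controls, and the log2 fold change was -0.13 (95% interval -0.27 to 0.01, adjusted p = 0.196). SCG2 in 22Rv1 lay between 4.54 and 5.97 CPM in controls and between 3.56 and 6.52 CPM in knockdown libraries, with a log2 fold change of 0.01 (-0.33 to 0.35, adjusted p = 0.968). With all libraries and the hairpins pooled, none of these 3 granins passed the edgeR test in 22Rv1.

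SCG2 rose in LNCaP95 from near silence. Its raw counts were 1, 0 and 0 in controls, 12, 7 and 5 with CPSF1 sh1 and 9, 18 and 11 with CPSF1 sh2, so every knockdown library lay above every control. The sums of 62 against 1 count gave a ratio of 29.7 after allowing for depth, with an exact 95% counting interval of 5.13 to 1191. SCG2 passed the filter of a mean of 0.5 CPM only through the knockdown libraries, so its call in the filtered fit (adjusted p = 6.04e-04) is conditional on the rise. With no filter the adjusted p was 3.92e-04. The fitted log2 fold change of 4.37 depends on the single control count. At 0.805 ± 0.388 CPM (n = 6), SCG2 with knockdown in LNCaP95 was still below its level of 5.29 CPM in the 22Rv1 controls. Without replicate 2 of CPSF1 sh2 the gene fell under the filter and could not be fitted.

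In LNCaP, SCG2 counts were 0, 1 and 1 in controls, 6, 0 and 3 with CPSF1 sh1 and 8, 2 and 4 with CPSF1 sh2. The gene was under the filter there, and 5 of 6 knockdown libraries lay above the controls. The count ratio was 5.83, with a counting interval of 1.44 to 51.0, and 6.00 (1.46 to 52.9) without the library that stood apart. An exact two-sided permutation test of the CPM over all 84 assignments of the 9 libraries gave p = 0.119 (adjusted p = 0.952 over the 8 genes and lines tested in this way), and the smallest p this design allows is 0.0238. A gene that alone reached that value could not pass after adjustment over the 8 tests, so the adjusted values decide nothing.

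The other genes under the filter stayed at the edge of detection. CHGB in LNCaP had 0 counts in the controls and 1, 1 and 17 with CPSF1 sh1 and 0, 0 and 1 with CPSF1 sh2, and the 17 counts came from the library that stood apart (exact permutation p = 0.238 with it and 0.357 without it, adjusted p = 0.952 over the 8 tests). CHGA in LNCaP had 1 count over the controls and 3 over the knockdown libraries, all 3 in the same library (exact p = 1 with it and 0.75 without it). In LNCaP95, CHGA and CHGB each had 0 counts in controls and 1 count over 6 knockdown libraries (exact p = 1 for both). Where only 1 library holds counts, this test cannot pass whatever the outcome, so these p-values decide nothing.

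NCAM1 was under the filter in all 3 lines. It had 4 counts over the controls and 13 over the knockdown libraries in LNCaP (exact permutation p = 0.357, and 0.429 without the library that stood apart), 3 and 4 in LNCaP95 (exact p = 0.5) and 0 and 1 in 22Rv1 (exact p = 1). The single count in 22Rv1 could not have passed the test. With control sums of 0 to 4 counts, a fall or a small change of NCAM1 was not detectable at this depth.

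SCG5, the 7B2 gene, was low in every line. In LNCaP95 it rose from 0.879, 1.26 and 1.47 CPM to 2.12, 2.22 and 2.29 CPM with CPSF1 sh1 and 2.45, 1.94 and 2.14 CPM with CPSF1 sh2. The groups did not overlap, and the log2 fold change was 0.87 (SE 0.22, adjusted p = 0.0033). In 22Rv1 its counts were 3, 6 and 3 in controls, 10, 12 and 6 with CPSF1 sh1 and 5, 13 and 10 with CPSF1 sh2.

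SCG5 had a control mean of 0.368 CPM in 22Rv1, so it passed the filter there only through the knockdown libraries. The groups of SCG5 overlapped in 22Rv1, and the log2 fold change of 1.23 (SE 0.44) passed the test narrowly (adjusted p = 0.0482). The call was lost when any of 7 of the 9 libraries was left out, which were all 3 controls, replicates 1 and 2 of CPSF1 sh1 and replicates 2 and 3 of CPSF1 sh2 (adjusted p up to 0.194). In LNCaP, SCG5 lay between 0.171 and 0.628 CPM in controls and between 0.416 and 1.11 CPM in knockdown libraries, with a log2 fold change of 0.69 (95% interval -0.26 to 1.65, adjusted p = 0.233) and 0.56 (-0.39 to 1.51, adjusted p = 0.337) without the library that stood apart. Its control mean there was 0.426 CPM, so in LNCaP too it passed the filter only through the knockdown libraries.

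The nearest gene upstream of SCG5 on the same strand, ARHGAP11A, which encodes a GTPase activating protein, ends 1.73 kb before it. ARHGAP11A was read at 92.0 CPM in LNCaP, 130.5 CPM in LNCaP95 and 165 CPM in 22Rv1, far above SCG5, and it fell in each line (log2 fold change -0.25, -0.47 and -0.20, adjusted p = 0.00369, 8.85e-06 and 0.0204). Reads that continue past the end of ARHGAP11A would be counted on SCG5 exons, and their part in the SCG5 counts was not tested. For the other members the nearest upstream gene on the same strand ended between 4.81 kb (CACNA1F before SYP) and 691 kb (PTS before NCAM1) away, and for MAP2 and RTN1 it was 569.6 kb (PTH2R) and 273 kb (DHRS7) away.

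Counted by line, 4 of the 8 genes could be fitted in LNCaP, 5 in LNCaP95 and 7 in 22Rv1. In LNCaP95, 4 of the 5 rose (MAP2, RTN1, SCG2 and SCG5) and 0 fell, beside 33% of all genes higher and 32.9% lower (4362 and 4350 genes, and 5814 and 3032 when scaled by library size alone, which moved the median of all genes from 0.01 to 0.13). SCG2 and SCG5 entered that fit through low counts, and SCG2 passed the filter only through the knockdown libraries, so the share is a description. In 22Rv1, 2 of 7 rose (RTN1 and SCG5) and 1 fell (SYP), beside 13.3% of all genes higher and 14% lower. SCG5 passed the filter there only through the knockdown libraries. In LNCaP, apart from MAP2 and RTN1, neither SYP nor SCG5 passed the edgeR test or an unadjusted p under 0.05, beside 29.7% of all genes higher and 31.1% lower, and 30.4 and 30.8% without the library that stood apart. DESeq2 also called neither.

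**Figure D2:**
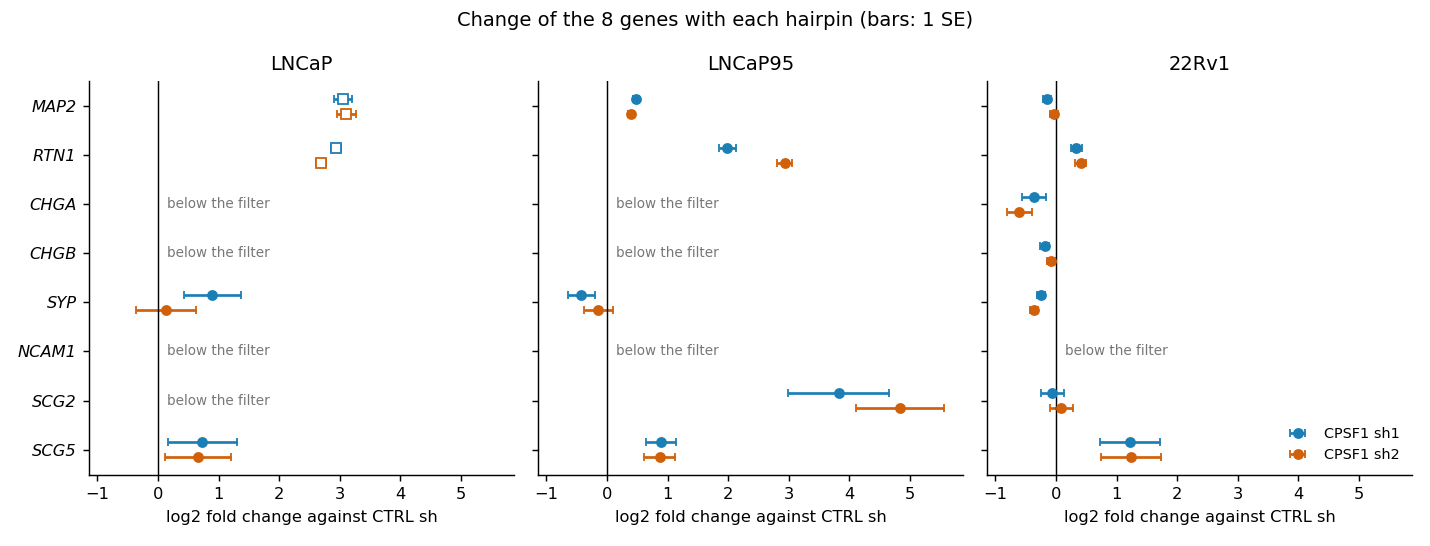
Log2 fold change of each gene with CPSF1 sh1 and CPSF1 sh2 against CTRL sh in each line, with bars of 1 SE on either side, from fits with 3 groups per line. Both hairpins are set against the same controls. Open squares mark MAP2 and RTN1 in LNCaP, which were chosen on these libraries. RTN1 was higher with both hairpins in all 3 lines, and its separation between hairpins was widest in LNCaP95.

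Both hairpins gave the same calls for the members of LNCaP95. Against the same controls, CPSF1 sh1 and CPSF1 sh2 changed MAP2 by 0.47 and 0.40, RTN1 by 1.99 and 2.93 and SCG5 by 0.89 and 0.87 on the log2 scale, all with adjusted p of 0.0052 or lower, and both called SCG2 (beside 65.1 and 72.5% of all genes called). SCG2 passed the filter only through the knockdown libraries, so its calls are conditional on the rise. In 22Rv1, RTN1 rose by 0.34 and 0.41 (adjusted p = 0.0137 and 0.00172) and SYP fell (-0.25 and -0.36, adjusted p = 0.0123 and 4.21e-04), beside 20 and 39.4% of all genes. The CPSF1 sh1 calls of RTN1 and SYP were lost without replicate 1 of the controls or replicate 2 of CPSF1 sh1 (adjusted p up to 0.0708 and 0.0896). CHGA was called with CPSF1 sh2 (-0.61, adjusted p = 0.0278) and not with CPSF1 sh1 (-0.36, adjusted p = 0.228), and the CPSF1 sh2 call was lost without replicate 1 or 2 of the controls or replicate 1 of CPSF1 sh2 (adjusted p up to 0.165). CHGB (-0.18, adjusted p = 0.0991) and SCG5 (1.23, adjusted p = 0.0940) passed with CPSF1 sh1 without its replicate 3 (adjusted p = 0.0385 and 0.0418), and MAP2 (-0.15, adjusted p = 0.106) without its replicate 1 (adjusted p = 0.00889). SCG5 with CPSF1 sh2 (1.24, adjusted p = 0.0577) passed without replicate 1 of CPSF1 sh2 or replicate 3 of CPSF1 sh1 (adjusted p down to 0.0189).

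In LNCaP, neither SYP nor SCG5 was called with either hairpin, beside 60.6 and 62.2% of all genes. For CPSF1 sh1 the log2 fold change of SYP was 0.90 (adjusted p = 0.111) with the library that stood apart and -0.15 (adjusted p = 0.759) without it. Without replicate 1 or replicate 2 of CPSF1 sh1, which raises the weight of that library, SYP was called (adjusted p down to 0.0239).

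Compared directly, the hairpins differed for RTN1 in both LNCaP lines, in opposite directions. In LNCaP95, RTN1 was higher with CPSF1 sh2 than with CPSF1 sh1 by 0.94 (SE 0.09, adjusted p = 1.23e-07), and SCG2 by 1.02 (SE 0.38, adjusted p = 0.0421), beside 32.3% of all genes differing. The SCG2 difference was lost without replicate 2 or 3 of CPSF1 sh1 or replicate 3 of CPSF1 sh2 (adjusted p up to 0.121). That difference was also lost with no filter, with DESeq2 and with the replicate block. In LNCaP, where 12.1% of all genes differed, RTN1 was lower with CPSF1 sh2 (-0.25, SE 0.06, adjusted p = 0.0103, and -0.29 without the library that stood apart), and the call was lost without replicate 2 of CPSF1 sh2 (adjusted p = 0.0684). RTN1 and MAP2 were chosen on these LNCaP libraries by their rise over controls, so their hairpin tests in LNCaP are conditional on that choice.

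MAP2 did not differ detectably between the hairpins in LNCaP with all libraries (0.05, adjusted p = 0.793), and was higher with CPSF1 sh2 without the library that stood apart (0.26, SE 0.07, adjusted p = 0.0233). In 22Rv1, no member differed between the hairpins in edgeR's test, beside 10.4% of all genes. The intervals there ran from -0.01 to 0.24 for MAP2, from -0.10 to 0.24 for RTN1 and from -0.24 to 0.02 for SYP. MAP2 was called in 22Rv1 without replicate 1 of CPSF1 sh1 (adjusted p = 0.0347).

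The change of MAP2 and RTN1 differed between the hormone-insensitive lines. Tested as an interaction over all 27 libraries, the knockdown effect was lower in 22Rv1 than in LNCaP95, with a log2 difference of -0.55 for MAP2 (SE 0.09, adjusted p = 9.43e-06) and -2.10 for RTN1 (SE 0.14, adjusted p = 4.22e-13), beside 52.3% of all genes that differed. For SCG2 the difference was -4.30 (SE 0.91, adjusted p = 2.12e-04), a fitted value that rests on the single control count of LNCaP95. SCG5 (0.34, 95% interval -0.70 to 1.39, adjusted p = 0.625) and SYP (-0.04, -0.73 to 0.65, adjusted p = 0.958) did not differ detectably. CPSF1 itself changed by -0.93 (SE 0.08) in LNCaP95 and by -0.51 (SE 0.06) in 22Rv1. Its own interaction was 0.41 (SE 0.10, adjusted p = 5.96e-04), a weaker knockdown in 22Rv1. The part of this in the differences of the members was not tested.

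Against LNCaP, SYP and SCG5 could be tested. The SYP effect was lower in 22Rv1 than in LNCaP by 0.84 (adjusted p = 0.0616) with all libraries and by 0.30 (adjusted p = 0.380) without the library that stood apart, beside 44.1% of all genes that differed. It passed without replicate 3 of 22Rv1 CPSF1 sh1, replicate 1 or 2 of LNCaP CPSF1 sh1 or replicate 1 of LNCaP CPSF1 sh2 (adjusted p down to 0.00993). Between LNCaP95 and LNCaP, where 50.4% differed, the interactions were -0.80 for SYP (adjusted p = 0.174) and 0.18 for SCG5 (adjusted p = 0.840), and -0.27 and 0.40 without that library. For MAP2 and RTN1 the effects of 3.08 and 2.81 in LNCaP stand beside 0.44 and 2.51 in LNCaP95, and were not tested against each other. For CPSF1 itself the interaction was -0.25 for LNCaP95 against LNCaP (adjusted p = 0.0332) and 0.16 for 22Rv1 against LNCaP (adjusted p = 0.165).

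Other genes of each group are counted below beside the shares of all genes called higher and lower, which were 29.7 and 31.1% for LNCaP, 33 and 32.9% for LNCaP95, then 13.3 and 14% for 22Rv1. Of the 9 dense-core vesicle genes tested in LNCaP95, SCG2 and SCG5 included, 7 rose and 0 fell, and 5 of 7 rose without those members. PAM, the enzyme that amidates peptide hormones, rose from 36.7 ± 1.36 (n = 3) to 59.8 ± 5.73 CPM (n = 6, log2 fold change 0.70, SE 0.08). In 22Rv1, 3 of 12 rose and 3 fell (median -0.06), with carboxypeptidase E (CPE) at 119.9 ± 1.76 in controls and 143 ± 3.75 CPM with knockdown (0.25, SE 0.04) and the prohormone convertase PCSK1 at 1.98 ± 0.146 and 0.683 ± 0.249 CPM (-1.51, SE 0.27). In LNCaP, 1 of 7 rose, and 2 of 7 without the library that stood apart. The counts in LNCaP and 22Rv1 also include the members that were fitted.

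Synaptic vesicle and exocytosis genes were called in both directions, in LNCaP and LNCaP95 at shares near those of all genes. In LNCaP 4 of 15 rose and 5 fell, in LNCaP95 4 of 16 rose and 6 fell, and in 22Rv1 5 of 21 rose and 6 fell, with medians of -0.01, 0.04 and 0.07. The calcium sensor SYT4 rose in LNCaP95 from 214 ± 24.5 to 772 ± 78.1 CPM (1.83, SE 0.10), and the vesicle glycoprotein SV2A from 0.435 ± 0.246 to 6.63 ± 3.03 CPM. SV2A also rose in LNCaP, from 0.0924 ± 0.0960 to 2.31 ± 0.446 CPM without the library that stood apart (3.30 with it). SV2A had control means under 0.5 CPM in both lines, so it passed the filter only through the knockdown libraries. The counts above include it. In 22Rv1 the SNARE protein gene SNAP25 fell from 20.8 ± 1.15 to 14.8 ± 2.08 CPM (-0.49, SE 0.11), as SYP did.

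Among genes of the neuronal cytoskeleton and axon other than MAP2, 8 of 16 rose and 6 fell in LNCaP. With MAP2 included, 9 of 17 rose and 3 fell in LNCaP95, and 6 of 21 rose and 3 fell in 22Rv1. In each line, 1 of those that rose passed the filter only through the knockdown libraries. ENO2, the neuron-specific enolase that is also a glycolytic enzyme, fell in LNCaP from 117.6 ± 9.72 to 20.4 ± 5.50 CPM (-2.53, SE 0.13, and -2.64 without the library that stood apart) and in LNCaP95 from 181 ± 16.7 to 47.4 ± 16.3 CPM (-1.93, SE 0.20). UCHL1, a neuronal deubiquitinase, rose in LNCaP from 0.697 ± 0.242 to 2.01 ± 0.696 CPM (1.49, SE 0.37, and 1.38 without the library that stood apart), and the RNA-binding protein gene ELAVL2 in LNCaP95 (1.54, SE 0.32) and ELAVL3 in 22Rv1 (1.32, SE 0.28). TUBB2B, a neuronal tubulin, fell in 22Rv1 (-0.84, SE 0.10).

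Of the neural adhesion and guidance genes, 8 of 10 rose and 2 fell in LNCaP95, beside 33% of all genes higher, and 2 of the 8 passed the filter only through the knockdown libraries. These were SEMA3A and NCAM2. SEMA3A, a secreted guidance cue, had no counts in the LNCaP95 controls and reached 0.947 ± 0.386 CPM with knockdown, and NCAM2, the paralogue of NCAM1, went from 0.0244 ± 0.0423 to 1.23 ± 1.22 CPM. NCAM2 also rose in 22Rv1, from 64.4 ± 1.81 to 94.5 ± 8.96 CPM (0.55, SE 0.07), where NRCAM fell (-0.66, SE 0.09), and 3 of 15 genes rose and 4 fell. In LNCaP, 5 of 11 rose and 3 fell, with 2 of the 5 passing the filter only through the knockdown libraries. Without the library that stood apart, 3 of 9 rose and 3 fell. The synaptic adhesion gene NLGN1 fell in LNCaP (-1.61, SE 0.21, and -1.80 without that library) and in LNCaP95 (-0.58, SE 0.11).

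Among reticulon genes and Nogo receptors in LNCaP, of the 6 others tested, 0 rose and 4 fell in edgeR's test, among them the Nogo receptor genes RTN4R (-0.80, SE 0.15) and RTN4RL1 (-0.43, SE 0.11). In LNCaP95, RTN4RL1 rose from 1.00 ± 0.0667 to 3.05 ± 0.591 CPM (1.57, SE 0.24) and RTN4 fell from 339.7 ± 7.45 to 263 ± 10.3 CPM (-0.38, SE 0.04), so that 2 of 7 rose, RTN1 included, and 3 fell. In 22Rv1, RTN1 alone rose of 7 tested, and 2 fell, with RTN3 at -0.25 (SE 0.04).

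Few neuropeptide genes were expressed well enough to test. In LNCaP 1 of 5 rose and 3 fell, in LNCaP95 1 of 5 rose and 4 fell, and in 22Rv1 3 of 11 rose and 5 fell. Of the 3 that rose in 22Rv1, 1 passed the filter only through the knockdown libraries. Neuromedin B (NMB) fell in all 3 lines, by 1.44 in LNCaP (1.86 without the library that stood apart), by 1.55 in LNCaP95 and by 1.70 in 22Rv1 on the log2 scale. CALCA, which encodes calcitonin and its gene-related peptide, fell in 22Rv1 (-1.72, SE 0.23), and galanin (GAL) rose in LNCaP95 (0.38, SE 0.06).

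Of 20 regulators of neuroendocrine identity, 7 were over the filter in LNCaP, 7 in LNCaP95 and 12 in 22Rv1. NEUROD1 and INSM1 had control means between 0 and 0.116 CPM in every line and were under the filter throughout. Of the regulators tested, 1 of 7 rose and 1 fell in LNCaP (1 of 6 rose and 2 fell without the library that stood apart), 2 of 7 rose and 1 fell in LNCaP95, and 1 of 12 rose and 1 fell in 22Rv1. ONECUT2 rose in LNCaP (0.63, SE 0.10) and LNCaP95 (0.45, SE 0.08), and HES6 fell in LNCaP95 (-0.85, SE 0.11). PEG10, a retrotransposon-derived gene, rose in LNCaP95 (0.77, SE 0.09) and fell in 22Rv1 from 1303 ± 14.9 to 994 ± 73.8 CPM (-0.39, SE 0.05). In LNCaP, PEG10 was called lower only without the library that stood apart, from 4.09 ± 0.598 to 2.28 ± 0.479 CPM (-0.81, SE 0.20).

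REST represses neuronal genes in other cells, with corepressors that include RCOR1 to RCOR3 and HDAC1. In LNCaP, REST stood at 79.8 ± 1.35 and 87.1 ± 5.31 CPM, a log2 fold change of 0.12 (adjusted p = 0.0417) whose call was lost when any of 6 of the 9 libraries was left out, namely the 3 controls, replicates 2 and 3 of CPSF1 sh1 and replicate 3 of CPSF1 sh2 (adjusted p up to 0.128). Of the 12 genes of the group, 1 rose and 5 fell in LNCaP, 3 rose and 5 fell in LNCaP95, and 2 rose and 0 fell in 22Rv1. RCOR2 fell in LNCaP (-1.27, SE 0.17) and LNCaP95 (-0.80, SE 0.21).

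Luminal prostate markers were all expressed. Of 16, 2 rose and 11 fell in LNCaP (10 fell without the library that stood apart), 3 rose and 11 fell in LNCaP95, and 1 rose and 4 fell in 22Rv1, beside 31.1, 32.9 and 14% of all genes lower. Their summed level lay between 8263 and 8331 CPM in LNCaP controls and between 6473 and 6913 CPM in knockdown libraries. In LNCaP95 it lay between 8626 and 8891 CPM in controls and between 6210 and 6599 CPM with knockdown. The groups overlapped in 22Rv1, at 4816 to 4863 CPM in controls and 4488 to 4979 CPM with knockdown. KLK3, which encodes prostate-specific antigen, fell in LNCaP (-1.64, SE 0.06) and LNCaP95 (-0.996, SE 0.06) and rose in 22Rv1 (0.41, SE 0.07). Markers of other cell types were under the filter for 9 of 15 genes in LNCaP, 10 in LNCaP95 and 8 in 22Rv1, and their summed level ranged over 132 to 146 CPM in LNCaP controls and 120.3 to 160.4 CPM in knockdown libraries (up to 133 without the library that stood apart). Of those tested, 2 of 6, 3 of 5 and 1 of 7 rose and 2, 2 and 1 fell in LNCaP, LNCaP95 and 22Rv1, and the lysosomal macrophage marker CD68 rose in all 3 lines (2.07, 1.59 and 1.81). Those that fell were VWF (-1.25) and COL1A1 (-0.73) in LNCaP, MBP (-0.45) and COL1A1 (-0.44) in LNCaP95, and ALB (-0.21) in 22Rv1. Of the markers that rose, 1 in LNCaP and 1 in LNCaP95 passed the filter only through the knockdown libraries.

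**Figure D3:**
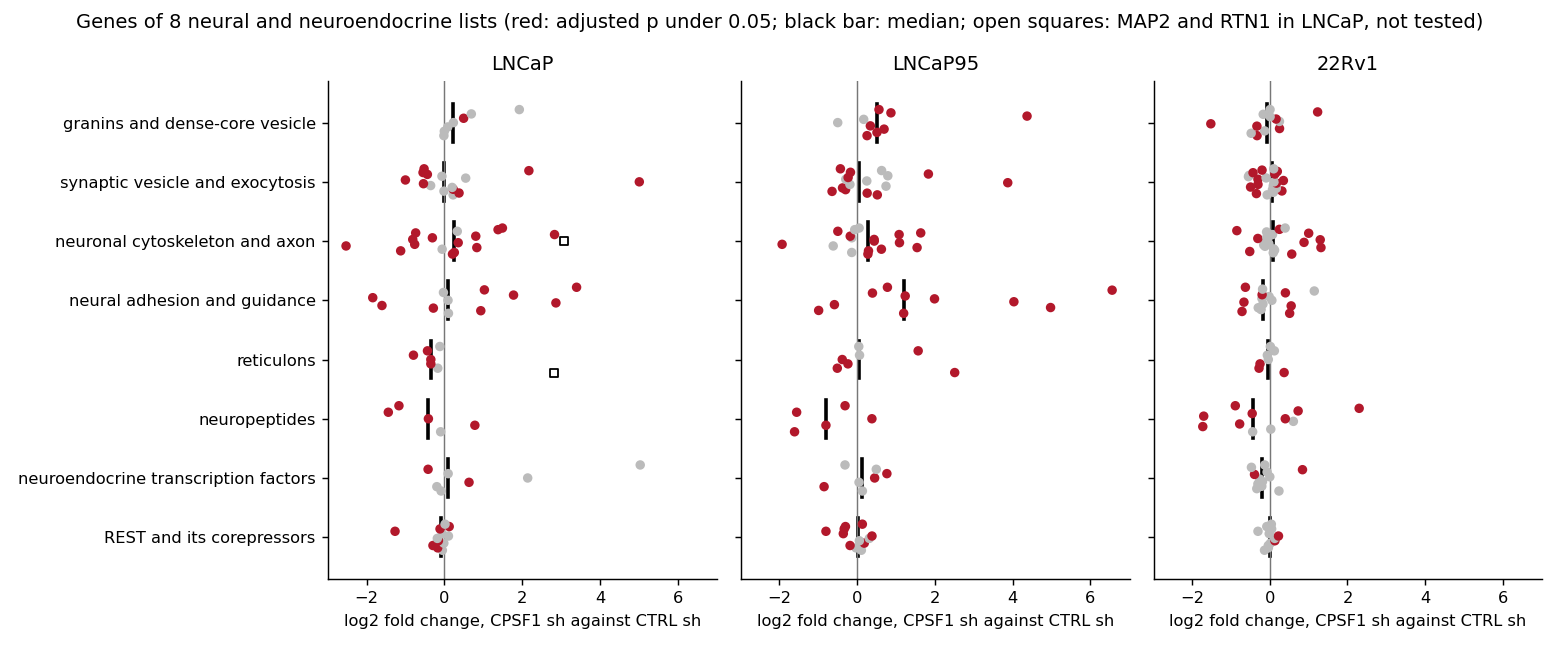
Log2 fold change with CPSF1 knockdown of every tested gene in 8 neural and neuroendocrine lists, by line, with red points for an adjusted p under 0.05, a black bar at each list's median and open squares for MAP2 and RTN1 in LNCaP. Of the genes in LNCaP95, 8 of 10 for neural adhesion and 7 of 9 for dense-core vesicles were higher, some of which passed the filter only through the knockdown libraries, and most lists hold called genes on both sides of 0.

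The genes named as most like MAP2 in pattern were not those named as most like RTN1. With log2 CPM centred within each line over 27 libraries, MAP2 was most like PLEKHB2, ACSL3 and GPC6 (Pearson r = 0.978, 0.962 and 0.960), and the genes most like RTN1 included NCDN and FOXD4 (r = 0.988 and 0.984), among 12450 genes with a mean of at least 2 CPM. Without the library that stood apart, the genes named for MAP2 and RTN1 and their order were the same. For SYP, the most alike were ALDH1A1, LPL and GATA3 (r = 0.906, 0.866 and 0.863), and without that library ALDH1A1 (0.683), KIF21B (0.666) and MAGEA2B (0.593). For SCG5 they were THBS4, DNASE2B and ANGEL2 (r = 0.756, 0.748 and 0.747), and without it DNASE2B, ZNF606 and THBS4 (0.764, 0.756 and 0.753). These values describe points that share the controls, the lines and the depth of the libraries. For MAP2 and RTN1 they include the LNCaP levels that chose both genes, and the correlation of MAP2 with RTN1 is not given.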

How the data were processed

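The authors used HISAT2 2.1.0 to align paired-end reads to GRCh37 (hg19), then featureCounts of Subread (2.0.3 in the submitters' processing notes) to count exonic reads by strand. They deposited raw counts for 20268 gene symbols, with gene coordinates and exon lengths. Depth was 8515624 to 15904518 counts per library.

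In R 4.3.3, each line was fitted with edgeR 4.0.16 (TMM, legacy quasi-likelihood F-test, 3 CTRL sh against 6 CPSF1 sh libraries, Benjamini-Hochberg adjustment over all genes, threshold 0.05). The study kept genes above 2 CPM in all 9 libraries. Here a mean of 0.5 CPM was used, since a minimum in every library removes genes near silent in controls. SEs were derived from the F statistic, and 95% intervals are 1.96 SE on either side. A 3-group model of each line compared the hairpins, and 1 fit of 27 libraries the lines. Genes under the filter were tested by exact permutation. The scripts were tested on simulated data. Normalised CPM use TMM over all 27 libraries.

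The 8 genes and the lists were chosen with earlier results of these data known. Of the 2 highest and 2 lowest called genes per list and line, those named were picked after their values were seen. They were genes whose call held wherever they could be fitted, with REST and PEG10 in LNCaP as exceptions. The markers of other cells that fell were all named, whether or not their call held. CD68 and the check of 22Rv1 genes were also singled out after seeing the data. Alternatives were DESeq2 1.42.0, RLE, library size alone, other filters, edgeR 4, the hairpins as groups or alone, a replicate block and each library left out. SYN2, NEFL and PECAM1 were not analysed here. A gene of the regulators and a gene alike to RTN1 are not reported here.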

Additional observations from a re-analysis of the deposited data

Results flagged for a closer look

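Some libraries lay far from the other 5 of their 6 CPSF1 sh libraries, by a criterion that chance meets in about 1 of 20 groups of continuous values. A group with counts in only 1 library always meets it, so that rate does not hold there. This covers CHGA in LNCaP and LNCaP95, CHGB in LNCaP95 and NCAM1 in 22Rv1, whose flags are no sign of a rare value. Replicate 3 of LNCaP CPSF1 sh1 was the highest for CHGA (0.298 CPM, the others at 0), CHGB (1.69 CPM, the others at 0.12 or lower) and SYP (5.96 CPM, the others between 0.975 and 2.52). It is the library in which genes of 22Rv1 were read at 6.56% of their level there.

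In 22Rv1, replicate 3 of CPSF1 sh1 was the lowest for RTN1 (18.1 CPM, the others between 20.8 and 21.6), the highest for SYP (68.9 CPM, the others between 56.2 and 60.8) and the only knockdown library with a count of NCAM1 (0.0958 CPM). Single counts also set apart replicate 3 of LNCaP95 CPSF1 sh1 for CHGA (0.0763 CPM) and replicate 3 of LNCaP95 CPSF1 sh2 for CHGB (0.0892 CPM).

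By interaction terms in the edgeR fit of 27 libraries, the knockdown effect was lower in 22Rv1 than in LNCaP95 for MAP2 (-0.55, adjusted p = 9.43e-06), RTN1 (-2.10, adjusted p = 4.22e-13) and SCG2 (-4.30, adjusted p = 2.12e-04). The fall of CPSF1 itself was smaller in 22Rv1 as well (interaction 0.41, adjusted p = 5.96e-04).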

How the results depend on the processing

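MAP2, RTN1 and SCG5 in LNCaP95, RTN1 and SYP in 22Rv1, and the differences of MAP2 and RTN1 between 22Rv1 and LNCaP95 kept their direction and passed in every alternative in which they were fitted. Of the gene results over all alternatives, 3952 kept direction and side of the threshold, 124 lost the call, 18 gained it and 31 changed sign. The cause of the changes below was not tested.

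Without a filter, 1 member passed for each hairpin in LNCaP (0 with it), 2 between the hairpins and 1 for the interaction of 22Rv1 with LNCaP. The member that passed for each hairpin was neither SYP nor SCG5, so it was among those under the filter in LNCaP. Members higher in LNCaP95 numbered 2 with either filter at 2 CPM, 3 with CPSF1 sh1 alone or without replicate 2 of LNCaP95 CPSF1 sh2, and 4 in the other settings. Between the LNCaP95 hairpins 1 member passed without a filter, with DESeq2 and with the replicate block. In 22Rv1, 1 member was higher with either filter at 2 CPM, no filter, DESeq2 or CPSF1 sh1 alone, and 2 were lower with the hairpins as groups or CPSF1 sh2 alone. Over all genes in 22Rv1, CPSF1 sh1 alone gave 1037 higher and 1165 lower, and CPSF1 sh2 alone 3388 and 3453. DESeq2 gave 1008 genes between the LNCaP hairpins (1594 by edgeR) and 915 between those of 22Rv1 (1430). SCG2 in 22Rv1 was -0.00399 with the replicate block and -0.0582 with CPSF1 sh1 alone.

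Leaving out 1 library at a time, members passing ranged over 0 to 1 for CPSF1 sh1 in LNCaP, 0 to 2 between its hairpins, 1 to 2 between those of LNCaP95, 1 to 2 higher and 1 to 2 lower in 22Rv1, 0 to 4 for CPSF1 sh1 in 22Rv1, 0 to 1 between its hairpins and 0 to 1 for the interaction of 22Rv1 with LNCaP. All genes ranged over 948 to 1581 between the LNCaP hairpins, 1177 to 2552 higher and 1264 to 2637 lower in 22Rv1, and 634 to 2192 between its hairpins.

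The log2 values that changed sign when 1 library was left out ranged as follows. For CPSF1 sh1 against CTRL sh, SYP in LNCaP ranged from -0.15 to 1.27 and SCG2 in 22Rv1 from -0.28 to 0.14. For CPSF1 sh2, SYP in LNCaP ranged from -0.27 to 0.40 and SCG2 in 22Rv1 from -0.0145 to 0.17, and over both hairpins SCG2 in 22Rv1 from -0.0884 to 0.11. Between the hairpins the ranges in LNCaP were -0.0425 to 0.26 for MAP2, -1.17 to 0.30 for SYP and -0.71 to 0.38 for SCG5. They were -0.11 to 0.0645 for SCG5 in LNCaP95, and in 22Rv1 -0.49 to 0.0274 for CHGA, -0.0545 to 0.37 for SCG2 and -0.36 to 0.34 for SCG5. Between lines, the SCG5 interaction of LNCaP95 with LNCaP ranged from -0.23 to 0.57, the SYP interaction of 22Rv1 with LNCaP95 from -0.11 to 0.0600 and the SCG5 control difference of 22Rv1 from LNCaP from -0.59 to 0.19.

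Replicate numbers did not pair the libraries: deviations of same-numbered libraries correlated between -0.0293 and 0.113 for LNCaP, between -0.180 and 0.194 for LNCaP95 and between -0.0807 and 0.137 for 22Rv1. The replicate block moved the members' calls for SCG2 between the LNCaP95 hairpins (adjusted p = 0.0508) and for SCG5 with CPSF1 sh2 in 22Rv1 (adjusted p = 0.0392). Members under the filter rest on 0 to 23 counts over a group, and depth limits them.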
